A study of Homo sapiens with 6 samples.

Results

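ONECUT2, PEG10, SYT4, DPYSL3, NPTXR and CBLN2 are genes of neuroendocrine and neuronal programmes, and their transcripts carried 34 of the 7772 AGO2 peaks listed for the prostate cancer line 22RV1. The 6 genes were chosen by gene name from the annotated peak table, with the presence, score and listed miR-194 sites of their peaks already known, so the values below describe them and no test is attached. 22RV1 is an established line of human prostate cancer cells, and the libraries came from cultures transfected with a miR-194 mimic at 20 nM (3 libraries) or with a negative control at the same dose (3 libraries). All 6 libraries were made in the same way: cells received 600 mJ/cm2 of ultraviolet light 24 h after transfection, which crosslinks proteins to RNA, and RNA bound to AGO2 was recovered with the antibody 4F9. The mimic was delivered by transient transfection into 1 cell line, and nothing in the labels ties the replicate libraries to independent cultures.

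The table gives 1 score per merged peak, a whole number from 5 to 1270, and nothing per library or per group. Mimic and control cells could therefore not be compared from the table, no value has a replicate error, and the reads behind each peak are not known. The labels also name signal tracks, which were not used here. Transcript levels were not measured in this table, so a high score from strong AGO2 binding and one from an abundant transcript cannot be told apart when genes are compared.

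AGO2 is the effector protein of microRNA silencing. A microRNA guides it to messenger RNAs mainly by pairing its seed, the bases near its 5' end, with a complementary stretch that most often lies in the 3' UTR, and the paired transcript is then repressed or degraded. In prostate cancer, neuroendocrine transdifferentiation is a switch of androgen-driven luminal cells to a state with neuronal and secretory genes, and it is a known route of escape from androgen-directed therapy. The series asks how miR-194 takes part in that switch.

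The first sequence is the mature microRNA, with its seed (bases 2 to 8) in capitals, from the RefSeq table (GRCh38.p14). The others are the 6 sites listed in peaks of these genes, shown because the peaks that hold a miR-194 match are described through them: 30 bases of the matched GENCODE 29 transcript (GRCh38) around each site, 5' to 3' on the transcribed strand, with the bases that match the seed or its flanking A in capitals. An 8mer is CTGTTACA, a 7mer-m8 is CTGTTAC, a 7mer-A1 is TGTTACA and a 6mer is TGTTAC, all read on the transcribed strand. Each longer form contains the 6mer, and "7mer match" stands for an 8mer, 7mer-m8 or 7mer-A1.
hsa-miR-194-5p: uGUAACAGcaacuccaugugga
SYT4, 8mer (chromosome 18, minus strand): tgtgaatatcttgaatcCTGTTACAaatcc
ONECUT2, 8mer (chromosome 18, plus strand): tataaagcagtgaaattCTGTTACAgacag
PEG10, 8mer (chromosome 7, plus strand): ttgctaatattgcattgCTGTTACAataaa
CBLN2, 8mer (chromosome 18, minus strand): gaggtaccccaggagcaCTGTTACAaatcc
DPYSL3, 7mer-m8 (chromosome 5, minus strand): atacctcattgactaggCTGTTACtttggg
ONECUT2, 6mer (chromosome 18, plus strand): caatcaaacctgcatacaTGTTACtcatga

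Of the 34 peaks, 27 were annotated to 3' UTRs, 3 to coding exons, 2 to a 5' UTR and 2 to transcript ends. A 7mer match was listed in 5 of them (14.7%, exact 95% interval 4.95 to 31.1%, counting error only), against 13.4% of all 7772 peaks. The interval treats the peaks as independent, although 14 were from CBLN2 and 9 from NPTXR, so it measures no spread between genes. In the 3' UTR class a match was listed in 4 of 27 peaks (14.8%), against 19.8% of all 1791 3' UTR peaks. The share was thus near that of all peaks and below that of all 3' UTR peaks. With 5 matches in 34 peaks it is too uncertain to tell a likeness from a difference. Counted by gene, 5 of the 6 had 1 peak with a match each, against 23.6% of the 3659 genes with a peak; this count follows from how the genes were chosen. The exception was NPTXR. The 5 matches comprised 4 8mers and 1 7mer-m8. The list as a whole held 323 8mers among its 1038 peaks with a 7mer match. With 5 matches, in genes chosen with their sites known, the 2 mixes of site kinds cannot be compared. The scores of the 34 peaks ran from 8 to 551 with a median of 25, where all peaks had a median of 15 and all 3' UTR peaks one of 17. The list median was reached by 24 of the 34 peaks (70.6%) and by 50.7% of all peaks. The upper quartile, a score of 23, was reached by 18 (52.9%) and by 26.5% of all peaks. Within the 3' UTR class the gaps were smaller. There the same list median of 15 was reached by 74.1% of the 27 peaks and 60.1% of all 3' UTR peaks. The list's upper quartile of 23 was reached by 51.9% and 38.8%. The genes were chosen with these scores known.

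**Figure D1:**
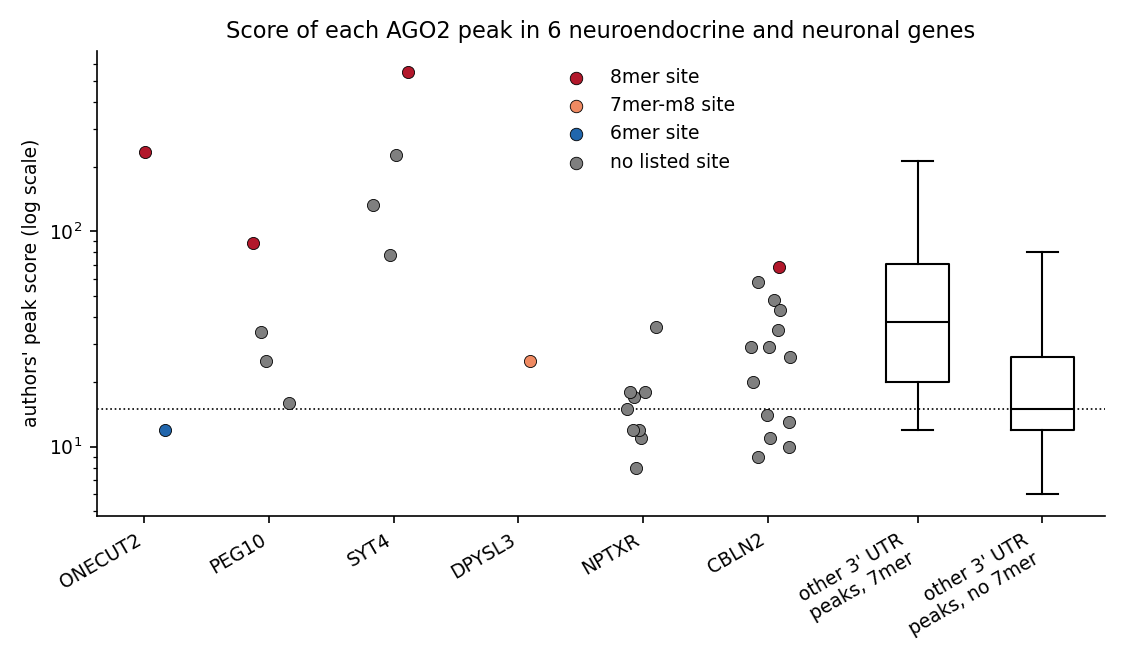
Authors' score of each of the 34 peaks (log axis), 1 point per peak, coloured by the best miR-194 site listed in it; the boxes show 3' UTR peaks of other genes with and without a 7mer match (median, quartiles, whiskers from the 5th to the 95th percentile), and the dotted line is the list median of 15. The peak with an 8mer is the highest of its gene in ONECUT2 (233), PEG10 (88), SYT4 (551) and CBLN2 (68), and the 9 NPTXR peaks lie between 8 and 36.

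ONECUT2 encodes a CUT-homeobox transcription factor that represses androgen receptor signalling and drives neuroendocrine prostate cancer. It had 2 peaks, both in the 3' UTR (exon 2 of 2), and their scores were 12 and 233 in 5' to 3' order. The high one covered chromosome 18 from 55150818 to 55150986 (hg19, plus strand, 169 nt) and held the 8mer 3 nt from its centre. It scored 19.4 times as high as the other, ranked 89th of all 7772 peaks and was 15th of the 354 3' UTR peaks with a 7mer match. The low one, from 55145119 to 55145205, held the 6mer shown above. The 2 peaks were 5612 nt apart.

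The ONECUT2 3' UTR is 14574 nt long in the matched transcript, the 5th longest among 889 genes with a 3' UTR peak and a matched transcript. It holds 4 copies of the 6mer, 3 of them part of a 7mer match. Only the 8mer, 6948 nt after the stop codon, was listed in a peak among those 3. The 2 others, shown here for comparison, lay in no listed peak.
ONECUT2, 7mer-m8 without a listed peak (9077 nt after the stop codon): acaaactgtaggaaacaCTGTTACtctctt
ONECUT2, 7mer-A1 without a listed peak (13031 nt after the stop codon): cctttctttacagttttgTGTTACAcaagt
The absence of a peak says only that none was listed there, since the depth is unknown.

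PEG10 is a paternally expressed gene derived from a retrotransposon, and its protein promotes growth and invasion in neuroendocrine prostate cancer. Its 4 peaks scored 16, 34, 25 and 88 in 5' to 3' order and formed 1 region of 422 nt, chromosome 7 from 94298577 to 94298998 (hg19, plus strand). The last and highest, of 168 nt, was annotated as a transcript end; the other 3 were 3' UTR peaks with no site. That last peak contained the 8mer, 47 nt downstream of its centre and 35 nt before the end of the transcript. It scored 2.59 times as high as the next PEG10 peak and ranked 18th of the 85 transcript-end peaks with a 7mer match. This 8mer is the 1 miR-194 7mer match in the 5161 nt that follow the annotated stop codon. PEG10 is known to be translated with a ribosomal frameshift, and the part after that stop codon includes coding sequence of the second frame, so distances are given here from the transcript end.

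SYT4 encodes a synaptotagmin, a membrane protein of secretory vesicles in neurons and endocrine cells. It had the highest single score of the 6 genes. In 5' to 3' order its 4 peaks scored 78, 551, 226 and 133, all at or above the upper quartile of the list. They ran almost without a break over 462 nt, chromosome 18 from 40847841 to 40848302 (hg19, minus strand), with gaps of 8, 2 and 2 nt. The last peak, annotated as a transcript end, ended 2 nt past the end of the matched transcript. The peak of 551 (137 nt, from 40848081 to 40848217) held the 8mer 35 nt downstream of its centre, ranked 14th of all peaks and 3rd of the 354 3' UTR peaks with a 7mer match. The other 3 peaks, at 78, 226 and 133, held no listed site, and no 6mer was found in their sequence either. The 226 peak alone was higher than 98.1% of 3' UTR peaks. A further 6mer 1027 nt after the stop codon lay in no listed peak.

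DPYSL3 encodes a dihydropyrimidinase-like protein that acts in axon growth and guidance and has been described in neuroendocrine-like prostate cancer. It had 1 peak, with a score of 25, in the 3' UTR (exon 14 of 14; chromosome 5 from 146771619 to 146771677, hg19, minus strand, 59 nt). The 7mer-m8 in it was 4 nt from the peak centre. The score lay below the median of 47 of the 93 3' UTR peaks with a 7mer-m8, and it was 233rd of the 354 3' UTR peaks with any 7mer match. A second 7mer-m8 followed downstream, 2056 against 1952 nt after the stop codon, and no peak was listed over it.
DPYSL3, 7mer-m8 without a listed peak: ctgcactctctgctctgCTGTTACtcagcc

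CBLN2 encodes a cerebellin, a secreted protein that organises synapses by linking presynaptic and postsynaptic receptors. It had 14 peaks, a number that only 7 of the 3659 genes with a peak reached or passed, CBLN2 included. The peaks lay in 3 regions (peaks within 50 nt of each other were joined), all on the minus strand of chromosome 18 (hg19). The region furthest upstream, from 70209231 to 70209535 in exon 3 of 5, had 3 peaks in the 5' UTR and coding sequence with scores of 9, 14 and 26 in 5' to 3' order. The second region, from 70205041 to 70205601 in exon 5 of 5, spanned the end of the coding sequence and the start of the 3' UTR, and its 7 peaks scored 13, 35, 11, 58, 20, 10 and 29. None of these 10 peaks had a listed site.

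The third CBLN2 region, from 70203993 to 70204487, lay near the end of the 3' UTR, and its 4 peaks scored 29, 48, 43 and 68. The last of them, 262 nt long, held the 8mer, 15 nt upstream of its centre and 221 nt before the transcript end. It was the highest of the 14 by a narrow margin, 1.17 times the score of 58 in the second region, which has no site. It was also the longest: among the longest of 10 equal length strata of the list 70.8% scored lower, against 93.0% over all peaks. The score of 68 was 95th of the 354 3' UTR peaks with a 7mer match. The 8mer is the 1 miR-194 6mer in the 1496 nt CBLN2 3' UTR.

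NPTXR encodes the neuronal pentraxin receptor, which gathers AMPA receptors at synapses. Its 9 peaks, all in the 3' UTR (exon 5 of 5; chromosome 22, from 39214889 to 39218142, hg19, minus strand), scored 18, 8, 36, 17, 11, 15, 12, 18 and 12 in 5' to 3' order. None had a listed site, and 5 of the 9 reached the list median. They lay in 4 regions, and the highest, of 183 nt, was higher than 75.4% of 3' UTR peaks. The matched transcript holds no miR-194 7mer in its 4157 nt 3' UTR, as was the case for 53.5% of the 889 genes with a 3' UTR peak. It holds 1 6mer, 53 nt before the transcript end. NPTXR peaks could not be placed on the transcript, because that was done through listed sites.

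**Figure D2:**
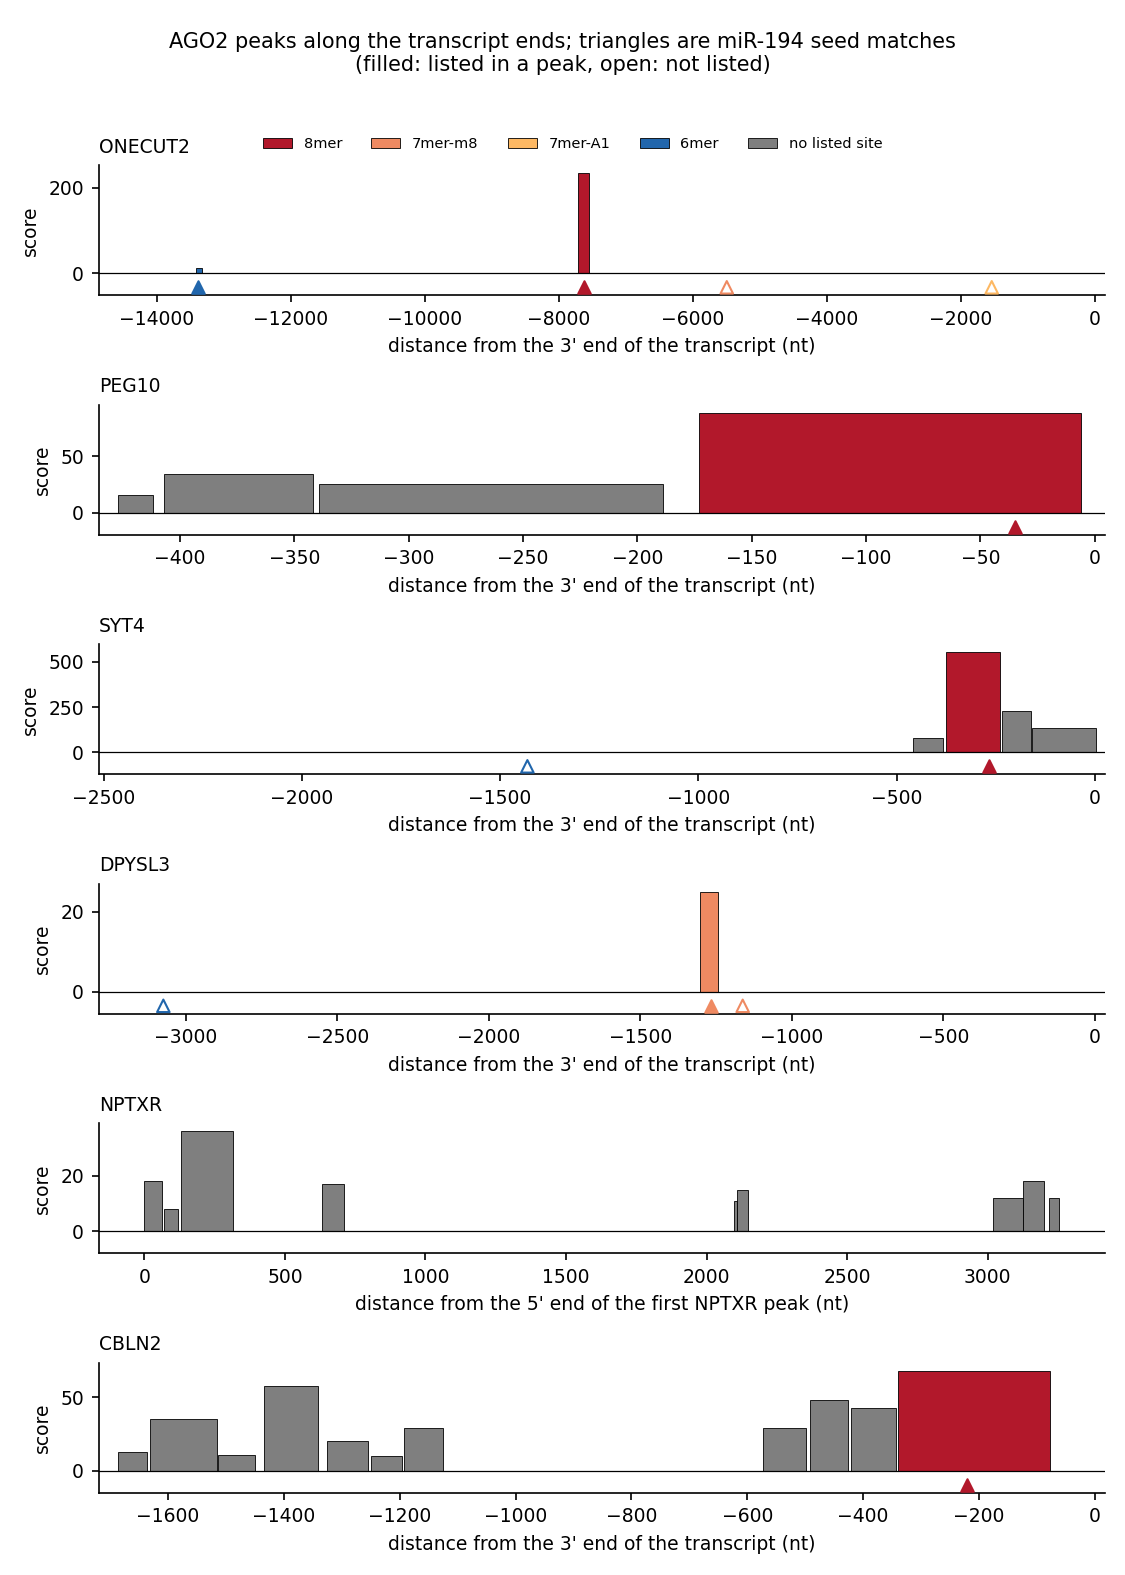
Peaks along the transcripts: the x axis is the distance in nt from the 3' end of the matched transcript (for NPTXR, from the 5' end of its first peak), bars span each peak with the authors' score as height, and colours give the best listed miR-194 site. Triangles mark miR-194 seed matches, filled where listed in a peak and open where not; the peaks in CBLN2 exon 3 are not drawn and the PEG10 panel shows the last part of the transcript. The bar with the 8mer is the tallest in the ONECUT2, PEG10, SYT4 and CBLN2 panels.

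Through their listed sites, 22 of the 34 peaks could be placed on the matched transcripts (all peaks of ONECUT2, PEG10, SYT4 and DPYSL3, and the 11 CBLN2 peaks in exon 5). Their sequence held no 6mer beyond the 6 listed sites, so the peaks without a site lacked one on the transcript as well. A and U made up 47.1 to 74.0% of the placed peaks (median 60.0%), with the highest share in a SYT4 peak. Of the 8 miR-194 7mer matches after the stop codons of the 6 genes, 5 were listed in a peak. Over the 889 genes with a 3' UTR peak and a matched transcript, 51.3% of 612 such matches were listed. The 6 genes were chosen with their listed sites known, so their count cannot be compared with this share.

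Of the 34 peaks, 30 (88.2%) lay in regions of 2 or more peaks within 50 nt, against 44.1% of all peaks with a gene name. The genes were chosen with their peaks known. Of the 3659 genes with a peak, 2040 had only 1, which cannot form such a region, so the 2 shares also reflect the number of peaks per gene. There were 3 regions with 2 or more peaks and a 7mer match, in PEG10, SYT4 and CBLN2, and in all 3 the match was in the highest peak. Across the list this held in 81.7% of 334 such regions with 1 matched peak (exact 95% interval 77.2 to 85.7%), so the 3 regions did what most regions did. In PEG10 and CBLN2 the matched peak was the last of its region in 5' to 3' order and also the longest (168 and 262 nt). In SYT4 it was the second of 4 and not the longest (137 nt, against 162 nt for the last). Over the list, peaks with a 7mer match had a median length of 92 nt, against 63 nt for those without. Whether length accounts for the match lying in the highest peak was not tested.

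**Figure D3:**
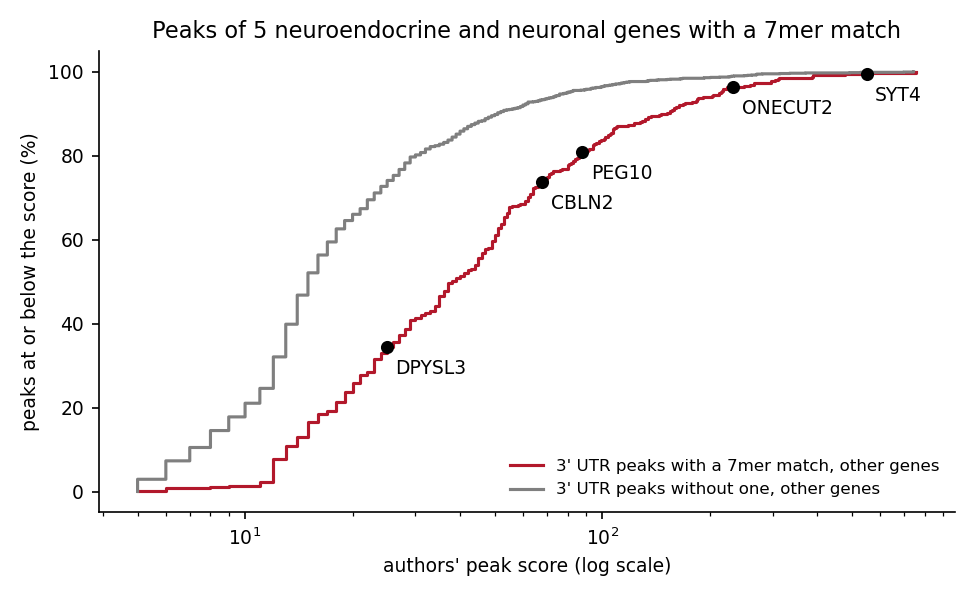
Cumulative share (%) of 3' UTR peaks of other genes at or below each authors' score (log axis), with a 7mer match (red) and without (grey). The 5 peaks with a match are marked on the red curve at their scores of 25 (DPYSL3), 68 (CBLN2), 88 (PEG10, annotated as a transcript end), 233 (ONECUT2) and 551 (SYT4).

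The 5 matched sites differed in how well the rest of the microRNA could pair. Energies of the duplex between miR-194-5p and the 30 bases shown were predicted with RNAduplex; a more negative value means stronger pairing. They were -19.0 kcal/mol for CBLN2, -17.6 for DPYSL3, -16.7 for PEG10, -11.7 for ONECUT2 and -9.8 for SYT4. Among 324 listed 7mer matches of other genes, in 3' UTR and transcript-end peaks that could be matched to a transcript, the median was -11.95 (quartiles -14.2 and -10.2). The 89 8mers among them paired more strongly, with a median of -13.6 (quartiles -15.8 and -11.5), and the 87 7mer-m8 sites had a median of -12.1. Beside other 8mers, the ONECUT2 and SYT4 sites were thus weaker than the median. The CBLN2 site paired more strongly than all but 3.09% of the 324 sites of every kind. In SYT4, 8 bases of the microRNA were paired, 7 of them in the seed, and none of bases 13 to 16, where additional pairing can stabilise a site. In CBLN2 16 bases were paired, 3 of them among bases 13 to 16. Both highest peaks of the 6 genes, in SYT4 and ONECUT2, thus sat on the weakest predicted duplexes of the 5. Across the 324 sites, which share the listed pattern and a base composition rich in A and U, energy and score had a Spearman's rho of -0.18, a description over sites that are not independent. Since stronger pairing has a more negative energy, this sign means that stronger pairing went weakly with higher scores. That is the opposite direction to the SYT4 and ONECUT2 sites, which are among 5 chosen sites.

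**Figure D4:**
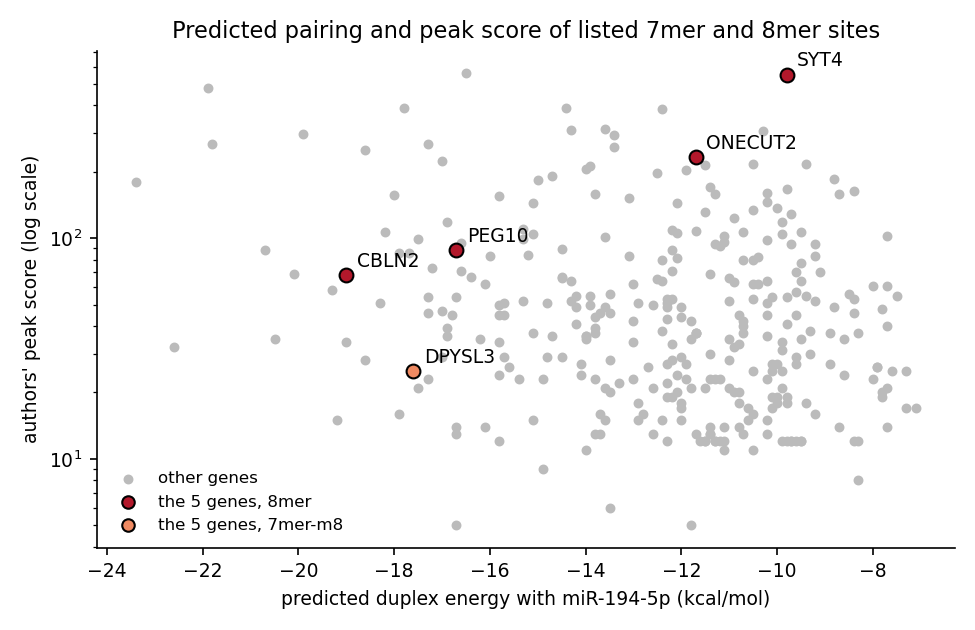
Predicted duplex energy with miR-194-5p (x axis, kcal/mol; further left is stronger) against the authors' peak score (log axis) for listed 7mer and 8mer sites found in matched transcripts. Grey points are 324 sites of other genes and the named points are the 5 genes; SYT4 has the highest score of the 5 (551) at the weakest energy (-9.8), and CBLN2 the strongest energy (-19.0) at a score of 68.

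The surroundings of the sites also varied. A and U made up 78.3% of the 30 bases on either side of the PEG10 site and 75.0% at the SYT4 site, against 68.3% at the ONECUT2 8mer, 55.0% at CBLN2 and 51.7% at DPYSL3; the 324 other sites had a median of 63.3%. PEG10, CBLN2 and SYT4 had their site within 35, 221 and 268 nt of the transcript end. The ONECUT2 8mer lay 6948 nt from the nearer end of its 3' UTR, farther than any of the 324 other sites, whose median was 436 nt.

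Among genes of the same families, ONECUT3 had 1 peak at a transcript end (score 30), SYT5 had 1 in a coding exon (16) and SYT7 had 1 in an intron (13), each without a listed site. No peak carried the name of another ONECUT, DPYSL, NPTX or CBLN gene. Of 12 genes made up of PEG3, which is imprinted like PEG10, and the retrotransposon-derived RTL genes with LDOC1, 3 had peaks, all in 3' UTRs. Of all protein-coding RefSeq genes 17.4% had a peak. RTL8C, listed as FAM127A, had an 8mer in a peak of 155, above the 88 of PEG10, and a peak of 24 without a site. LDOC1 had an 8mer in a peak of 41 and peaks of 31 and 13 without a site. RTL6, listed as LDOC1L, had 1 peak of 13 without a site.

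On 4 wider lists of neuroendocrine and neuronal genes, 22 of 91 genes had a peak and 10 of these a 7mer match, but both counts include the 6 genes above, which were chosen for their peaks. Without them, 16 of 85 genes had a peak (18.8%), near the 17.4% of all 20056 protein-coding RefSeq genes. Of these 16, 5 had a 7mer match (31.2%, beside 23.6% of all genes with a peak), and their highest scores had a median of 18, where all genes with a peak had one of 17. Among 22 regulators, 5 had a peak: besides ONECUT2, PEG10 and ONECUT3 these were SRRM4, a neural splicing factor (4 intron peaks scoring 10 to 14), and REST, the repressor of neuronal genes (3' UTR, 16), both without a match. Among 24 secretory granule and synaptic vesicle genes, 3 had a peak, and besides SYT4 these were SNAP25 (intron, 19) and UNC13A (3' UTR, 18), again without a match.

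The counts on the next lists stand beside 17.4% of all protein-coding RefSeq genes with a peak, and 23.6% of all genes with a peak that had a match. They include the chosen genes and were not tested. Among 25 genes of axons, the cytoskeleton and adhesion, 9 had a peak and 4 a match. MAP1B, a microtubule-associated protein, had a 7mer-m8 in a coding exon peak (62), MAP2, of dendritic microtubules, an 8mer in a 3' UTR peak (19), and STMN1, a microtubule destabiliser, a 7mer-m8 in a 3' UTR peak (12) beside a higher one without a site (32). STMN3 (27), ENO2 (18), TUBB3 (14), L1CAM (12) and ELAVL3 (12) had peaks without a match. Among 20 synaptic organisers, 5 had a peak and 3 a match. Besides CBLN2, a match was listed for NLGN1, a neuroligin (8 peaks, the highest 18, with an 8mer in an intron peak of 13). NPTXR and NRXN2 (11) had none. Of 12 clinical and classical neuroendocrine markers, among them CHGA, SYP and INSM1, 1 had a peak, ENO2. Of 10 markers of blood, vessel and stromal cells none had a peak. Both marker lists are too short for such counts to be read as a share below 17.4%. Lack of a peak does not show lack of expression.

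Peaks of other genes with the same class, the same kind of site and the nearest score were of varied function. For SYT4 they were ERGIC2 (559), THBS1 (478) and SUOX (390), and for ONECUT2 they were CUL4B (250), FAM20B (212) and MAGT1 (267), out of 102 other 3' UTR peaks with an 8mer. The nearest to CBLN2 were KLHL11 and LIMCH1 (69 each) and ABHD13 (67). For PEG10, out of 24 transcript-end peaks with an 8mer, they were KIF2A (95), REC8 (108) and B3GNT8 (68). For DPYSL3 they were SLC5A3 (25), ARID2 (24) and MARCH6 (24). NPTXR shared its highest score of 36 with 5 other 3' UTR peaks without a site, among them peaks of EEF2K, PDGFB and TMEM209.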

How the data were processed

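AGO2 HITS-CLIP libraries of 22RV1 cells (3 mimic, 3 control) are represented by 1 annotated peak table; the signal tracks that the labels name were not used here. The authors deposited 1 score per peak; its meaning and any pooling of libraries are not given in the sources used here. Build hg19 and the tools MACS2, SAMtools, TopHat2 2.0.9, FastQC and cutadapt 1.8.1 are named in the submitters' processing notes, without order or settings. The table has no read totals, so depth is unknown.

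Peaks were assigned by gene name after spaces were trimmed. Listed sites on the peak's own strand were classed by their bases. Listed sites were 10 bases long in 3' UTR peaks and 9 bases in all other classes; whether this affects the shares between classes was not tested. Peaks were placed on GENCODE 29 transcripts, matched by RefSeq accession, through the listed bases, never by coordinates of another build. In 82 pairs of listed sites on 1 transcript, 82 had the same distance in the table and the transcript, with offsets counted from the peak's 5' end. Duplex energies, which allow G-U pairs, came from RNAduplex (ViennaRNA 2.7.2). Python 3.11.15, pandas 2.3.3, numpy 2.4.6 and scipy 1.17.1 were used. Intervals are exact Clopper-Pearson. Classing, placing and joining were tested on simulated data.

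The members and gene lists were chosen with earlier results of these data known. Named genes were the 6 genes, every list gene with a peak (1 is counted but not reported here) and, per gene, the 3 other peaks nearest in score within the same class and site type. No test was run. RTL genes were matched through RefSeq synonyms (GRCh38.p14) after their values were seen. Alternatives covered the kind of site, score minimum, gene part, strand, joining of peaks, symbols and transcripts.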

Additional observations from a re-analysis of the deposited data

How the results depend on the processing

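No paired analysis was possible because the table holds no value per library, and leaving out a replicate could not be run for the same reason. The 5 peaks with a 7mer match became 4 with 8mers alone or in 3' UTR peaks alone and 6 with 6mers, and remained 5 in number under the other 3 settings. The 34 peaks became 12 regions when peaks within 50 or 200 nt were joined, and 18 were at or above the upper quartile of the score. The list genes with a peak numbered 13 in 3' UTR peaks, against 22 in all, and those with a 7mer match 6 in 3' UTR peaks and 6 with 8mers alone, against 10; without the 6 genes themselves, a setting chosen after seeing the data, they numbered 5, against 16 with a peak. These follow from fewer peaks or sites being counted. The share of peaks below each gene's highest depended on the peaks it was ranked among. Against all peaks, 3' UTR peaks and peaks of like length it was 98.85, 98.32 and 93.96% for ONECUT2, 95.01, 92.52 and 77.25% for PEG10 (91.37% among transcript-end peaks), 76.4, 64.6 and 88.29% for DPYSL3, 84.33, 75.43 and 52.44% for NPTXR and 92.96, 89.28 and 70.82% for CBLN2. For SYT4 it was 99.82% against all peaks and 98.84% among peaks of like length. The cause of these shifts was not tested. The median score was 25 over all 34 peaks and over 3' UTR peaks alone, and 31 with peaks within 50 nt joined. Keeping only peaks at or above the list median made it 34.5, a rise that the filter itself sets. The count of 7mer matches listed in a peak was 5 of 8 with transcripts matched by accession or by symbol. Without counts per library, no limit of detection can be given for a transcript without a peak.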

Other observations

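The PEG10 site ran into a polyadenylation hexamer. The letters AATAAA, the signal that directs cleavage and polyadenylation, begin at the A that closes the 8mer, in the window ttgctaatattgcattgCTGTTACAataaa. Of the 324 listed 7mer matches of other genes, 3 (0.926%) had AATAAA, searched on the transcribed strand, anywhere in a window of the same 30 bases, and 8 lay within 50 nt of the transcript end, none of these with it. The window ends where the PEG10 hexamer ends, so a hexamer that starts farther downstream of a site could not be found. These counts therefore do not give the share of sites that lie near such a signal.

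The SYT4 and CBLN2 sites shared at least 13 bases in a row, CTGTTACAAATCC, which is the 8mer with the next 5 bases downstream. The run reaches the end of the printed windows, so its full length is not given here. The other pairs among the 5 matched sites shared 7 to 9 bases, a length set mostly by the seed match that every pair has by selection. The scores over these 2 sites were 551 in SYT4 and 68 in CBLN2.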
